A study of Mus musculus with 107 samples.

Results

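The Kelch-like genes were followed through single mouse eggs, taken as the 36 gene symbols made of Klhl and a number among the 21564 symbols of the deposited count table. The family was chosen by the mutant over wildtype difference of Klhl21, which was among the large falls in mutant eggs, so the mutant against wildtype values of single members are given as a description, without p-values, and nothing is read from counts of calls in that comparison. Of the 36 genes, 35 had at least 1 count in some egg, and 28 had enough counts to be tested between groups. The 8 that were not tested were Klhl4, Klhl10, Klhl23, Klhl33, Klhl34, Klhl38, Klhl40 and Klhl41.

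Libraries were made from 107 single eggs by Smart-seq2, which copies polyadenylated transcripts of 1 cell along their length. All came from C57BL/6J females of 2 to 3 months that had received 5 IU of pregnant mare serum gonadotropin 48 h before collection. Oocytes were isolated in 2.5 µM milrinone, which holds them before meiotic resumption, matured in culture without it, and collected 38 to 40 h after breakdown of the germinal vesicle. The wildtype group had 29 eggs and the mos -/- groups had 61, named M1 (22 eggs), M2 (18) and M3 (21) by the submitters, with no definition of these names. The deposited egg table carries a growth number, likewise undefined, which was 1 for every M1 and wildtype egg, 2 for every M2 egg and 3 for every M3 egg. A further 17 wildtype eggs, the activated group, spent 2 h in calcium-free medium with strontium chloride at 10 mM, starting 15 to 16 h after germinal vesicle breakdown, and then went back to culture medium. Mos is a kinase that keeps the mature egg arrested in the second meiotic division, and strontium releases that arrest without sperm. Of the activated eggs 8 had growth number 1 and 9 had 2. No label gives the design of the mos allele or ties an egg to an animal.

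Kelch-like proteins pair a BTB domain, which binds the scaffold CUL3, with a kelch propeller that holds a substrate, and so bring chosen proteins to a CUL3 ubiquitin ligase. Attachment of the ubiquitin-like protein NEDD8 to the cullin switches such a ligase on, and the COP9 signalosome takes NEDD8 off. Several family members act on regulators of cell division: KLHL21, KLHL9 and KLHL13 on Aurora B, KLHL18 on Aurora A, KLHL22 on PLK1, and KLHL42 on the microtubule-severing katanin.

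Fully grown oocytes and arrested eggs hardly transcribe, and whether activated or mutant eggs did was not tested. Stored transcripts are governed through their 3′ ends, where a cytoplasmic polyadenylation element near the polyadenylation signal can direct lengthening of the poly(A) tail. The 3′ ends of members the results turn on are therefore shown, 5′ to 3′, as 30-base windows of the annotated 3′ UTR in GENCODE M21 (GRCm38), with the polyadenylation signal (AATAAA or ATTAAA) and any polyadenylation element (TTTTAT or TTTTAAT) in capitals:
Klhl21: cctaatttttgaAATAAAatgtttcctata
Klhl8: ttgtcattaatcAATAAAatgttgttggta
Klhl9: atctctttatatAATAAAattacttaactg
Klhl13: cttcttttcttcAATAAAaacatttaatgt
Klhl25: gcTTTTATtagtttctaacttAATAAAagt
Klhl42: gaaatgcctttaAATAAAagagttctcaat

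Only the sense strand of the last 100 bases was searched, with the 2 forms of each motif, which can overlap each other. Among these 6 genes, only Klhl25 had an element in that window. Of members not shown but compared below, Klhl12 had neither motif there. Klhl18 and Klhl3 had an element and Klhl22, Klhl6 and Klhl32 had none. Of the 34 members with a 3′ UTR of at least 100 bases, 8 (23.5%) had an element there, beside 3110 of 17293 genes of the table (17.98%). A polyadenylation signal was found in 29 of the 34 (85.3%) and in 80.8% of the genes of the table. Median 3′ UTR length was 1509 bases in the members and 936 in the table. These matches describe letters in the annotated ends only. The annotated proteins ran from 493 residues for Klhl42 to 875 for Klhl29.

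Depth differed between the batches named in the labels. Totals ran from 44 to 9132471 counts per egg, and 3 eggs had under 10000. The 24 wildtype eggs of batch 2 were the shallowest group, with a median of 207420 counts, and the 5 wildtype eggs of batch 1 had a median of 8144112. Eggs were summed by group and batch into 9 sums of 5436993 to 36209306 counts, which were the units of the tests. In batch 2 the wildtype eggs were on a plate of their own, the mutant eggs on those named Plate1 and Plate2 and the activated eggs on yet another, so plate and group cannot be told apart in any comparison of wildtype, mutant and activated eggs within that batch. Since no animal or culture is named, p-values measure only the spread between these sums, which may be technical. All 15 egg markers were detected, at 7269 to 19408 raw CPM (counts scaled to a common library total) summed over the list. Granulosa and cumulus markers summed to 111 to 338 raw CPM, blood markers to 4.03 to 27.7, and theca, stroma and endothelium markers to 40.8 to 125.1, with Ptx3, Ptprc, Tyrobp, Hbb-bt, Hba-a1 and Col1a2 at 0 in every egg. The granulosa sum was lowest in activated eggs, and the part of these markers in any result was not tested. Mos itself had 6.52 and 31.6 raw CPM in the wildtype sums and 0.868 to 13.3 in the mutant sums, so transcripts assigned to it were still counted in mutant eggs.

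One gene made up most of the family's counts. Klhl8, whose worm relative takes part in the turnover of the receptor-clustering protein rapsyn, held 70.1% of all Klhl counts. Its share of the family was 72.1% in wildtype eggs of batch 1, 71.5% to 75.4% in the mutant sums of batch 1, 62.3% in wildtype eggs of batch 2, 50.1% to 53.8% in the mutant sums of batch 2 and 77.9% in activated eggs. The other 35 genes together stayed between 569 and 873 raw CPM in the 9 sums, whereas the family total ran from 1454 to 3245. The height of the family total thus followed Klhl8, as the stacked bars of family counts show.

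**Figure D1:**
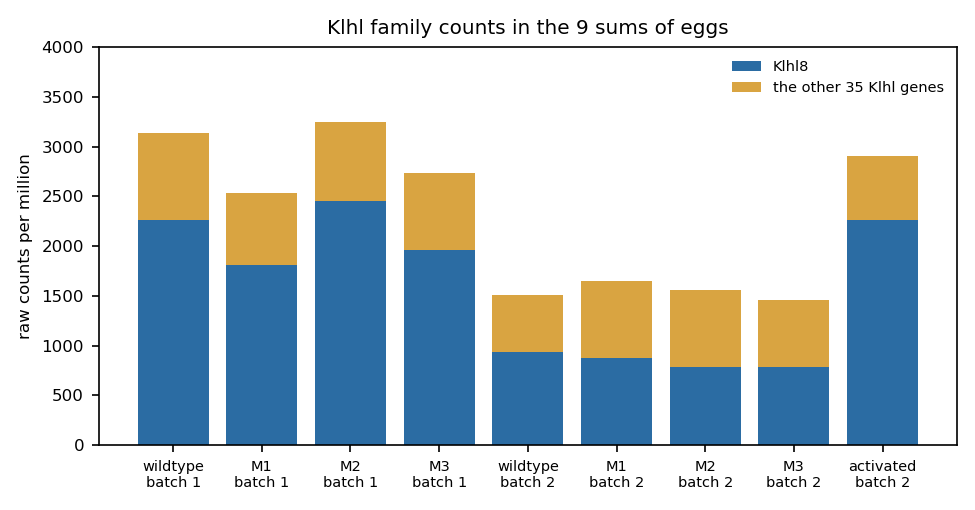
Raw CPM of all Klhl genes in the 9 sums of eggs (x axis: group and batch), split into Klhl8 (blue) and the other 35 genes (yellow). Batch 1 sums and activated eggs carry 2529 to 3245 raw CPM in all and the remaining batch 2 sums 1454 to 1653, and most of the difference is Klhl8.

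Levels were compared between genes per kilobase of annotated transcript, on CPM scaled by the trimmed mean of M-values (TMM CPM). In wildtype eggs Klhl8 stood first with 795 TMM CPM per kilobase in batch 1 and 342 in batch 2. Klhl9 followed with 49.9 and 38.8, Klhl13 with 54.04 and 29.3, and Klhl21 with 39.04 and 20.6. Klhl21 was below Klhl9 and Klhl13 in both sums, while Klhl9 and Klhl13 changed places between them. Klhl25, an adaptor for the translation repressor 4E-BP1, came next with 18.2 and 12.9. Klhl12, an adaptor for the COPII coat protein SEC31A and for Dishevelled, had 20.1 and 6.78, a range that held the whole of that of Klhl25. The order past the fourth gene was that of the mean of both sums and changed between them, since Klhl18 had 7.72 in batch 1 and 14.2, above Klhl25 and Klhl12, in batch 2. By that mean the other 22 tested members fell from 11.4 (Klhl22) to 0.0312 (Klhl14). Exons of 8 members overlap another annotated gene, and the sources used here do not state whether counting used strand. For Klhl21 the overlap is with the antisense gene Gm9768, and 19.8% of the 50-base words of its transcript also occur in other genes, so part of its reads cannot be assigned with certainty. The same limit holds for Klhl9, which overlaps the antisense gene Gm26566 and shares 14.8% of its words. Klhl13 overlaps Gm14523 on the same strand, with 0% of the words of its transcript shared.

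**Figure D2:**
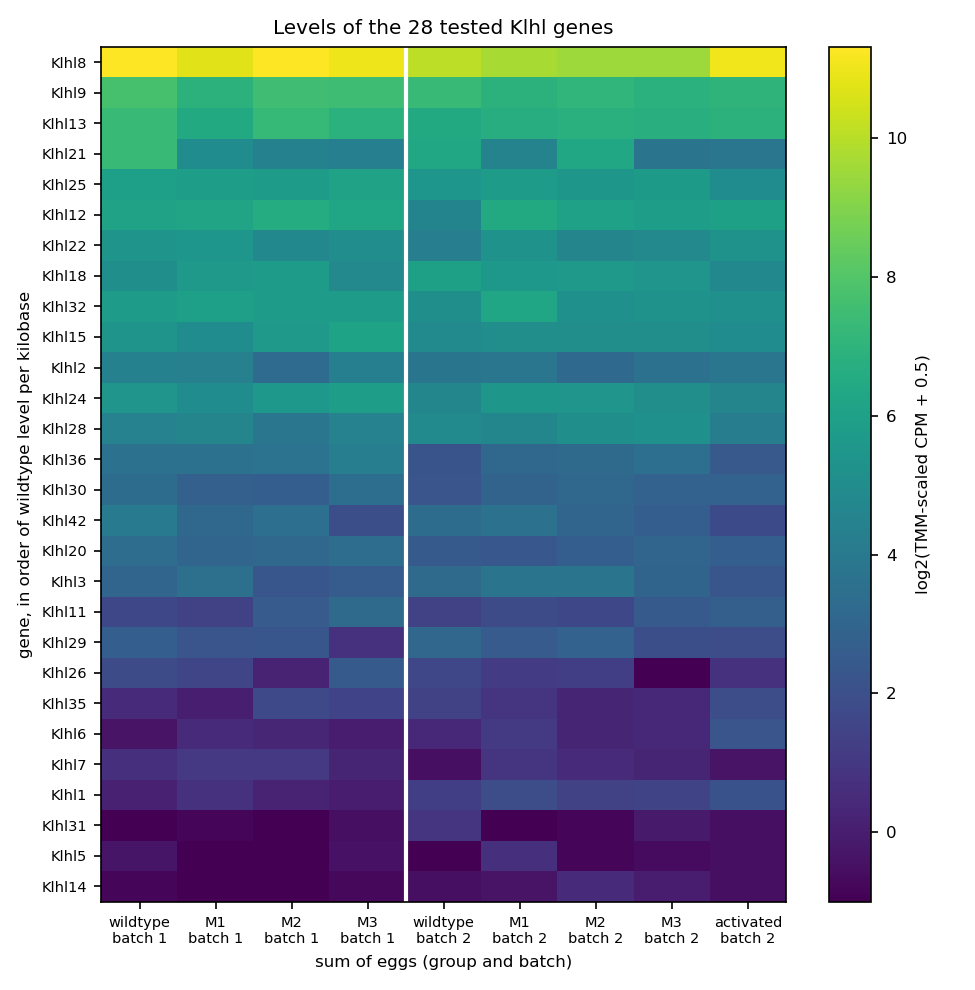
Level of the 28 tested Klhl genes (rows, in order of wildtype level per kilobase) in the 9 sums of eggs (columns), as log2(TMM-scaled CPM + 0.5), with the white line between batches 1 and 2. Klhl8 is bright in every column and is highest in wildtype eggs of batch 1, at 2539 TMM CPM, and the Klhl21 row darkens from the wildtype to most mutant columns and to the activated column.

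Klhl21, which carries the CUL3 ligase to Aurora B on the spindle midzone for cytokinesis, lies on chromosome 4 (GRCm38, 152008803 to 152017680, plus strand, 4 exons). It had 156 TMM CPM in wildtype eggs of batch 1 and 82.1 in those of batch 2. The mutant sums of batch 1 had 31.2 (M1), 20.6 (M2) and 19.5 (M3), and those of batch 2 had 22.4 (M1), 79.6 (M2) and 12.7 (M3). On this scale every mutant sum was below both wildtype sums, with M2 of batch 2 just under the lower of these. In raw CPM the order of these last turned, at 85.3 for M2 and 70.6 for wildtype eggs of batch 2. The fitted mutant over wildtype difference was -2.08 ± 0.47 on the log2 scale (SE, 6 mutant and 2 wildtype sums), a level 0.236 times that of wildtype. This is the contrast that chose the family, so the value is a description. The mean of the mutant sums was 0.153 times wildtype in batch 1 and 0.4658 times in batch 2. The difference became -1.25 when each egg was thinned to 60000 counts, and -2.61 and -1.43 without the wildtype sums of batches 2 and 1.

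Single eggs showed how uneven Klhl21 was. In batch 1 the 5 wildtype eggs had 31.4, 72.8, 117.9, 114.7 and 269 raw CPM, and the highest of them held 48.98% of that sum's Klhl21 counts. Without that egg the fitted mutant difference was -1.76. The 4 M1 eggs of batch 1 had 59.1, 27.2, 27.8 and 16.4 raw CPM, the 2 M2 eggs 14.3 and 25.7, and the 3 M3 eggs 10.3, 16.8 and 28.2. Of these 9 mutant eggs 8 lay below the lowest wildtype egg, and 1 M1 egg overlapped. The deposited egg table puts all 5 wildtype eggs of batch 1 and 2 of these mutant eggs, at 10.3 and 59.1 raw CPM, on 1 plate and the other 7 mutant eggs, at 14.3 to 28.2, on another. For those 7 eggs plate and genotype cannot be told apart.

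In batch 2 the groups overlapped. The 24 wildtype eggs ran from 0 over a median of 31.4 to 330 raw CPM. Mutant eggs with at least 10000 counts (49 eggs) ran from 0 over a median of 11.2 to 1517, and 38 of them were below the wildtype median. The 2 highest mutant eggs, both M2, had 980 and 1517 raw CPM, far above every wildtype egg, and 1 of them held 51.8% of the Klhl21 counts of its sum. Without both, a choice made after their values were seen, the fitted mutant difference was -2.41. Activated eggs (17) ran from 0 over a median of 15.9 to 72.3 raw CPM, and 15 of them lay below the wildtype median.

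**Figure D3:**
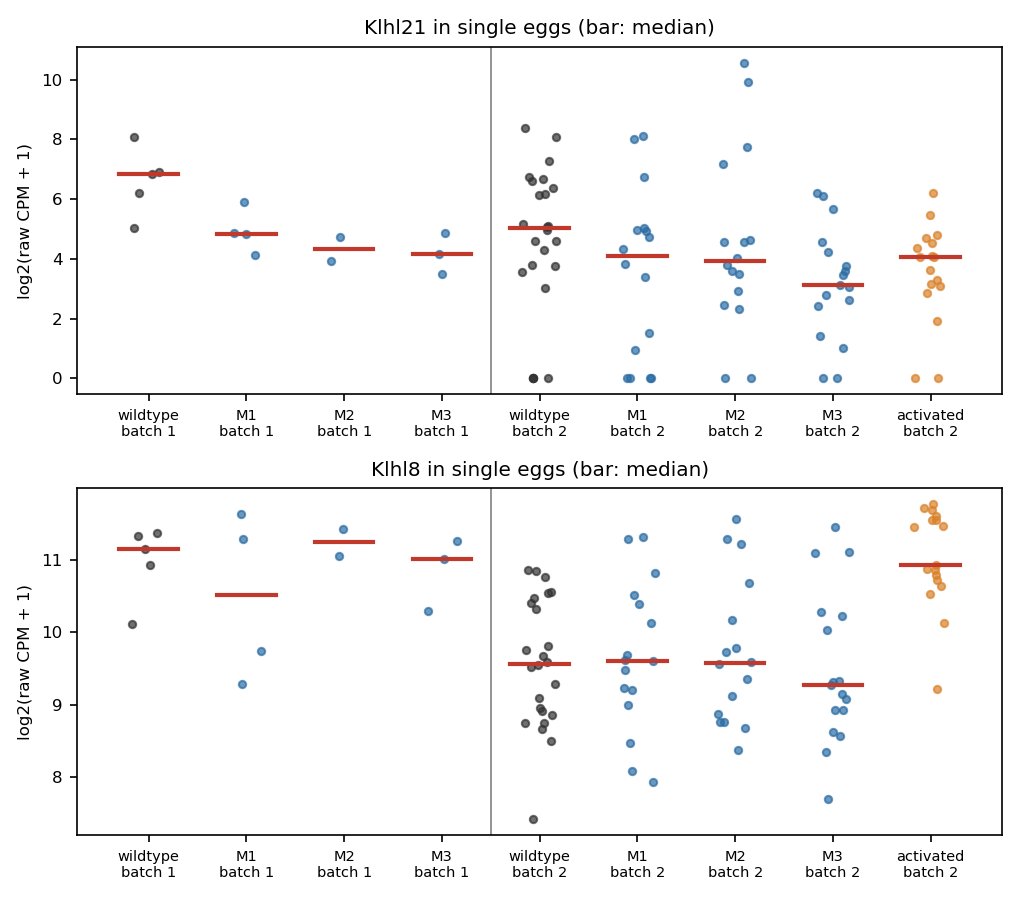
Klhl21 (top) and Klhl8 (bottom) in single eggs of at least 10000 counts by group and batch (x axis), as log2(raw CPM + 1), with each dot 1 egg, wildtype in black, mutant in blue, activated in orange and the median as a red bar. Medians of Klhl21 are lower in the mutant and activated groups of each batch than in wildtype eggs of that batch, with 2 M2 eggs at 980 and 1517 raw CPM, and 16 of the 17 activated eggs lie above the wildtype median of batch 2 for Klhl8.

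Across the family, mutant eggs showed no shared direction. By edgeR 1 of the 28 tested members was called, beside 9.38% of 13832 genes. It was Klhl21, among the 557 genes called lower (4.03%), and no member was among the 741 called higher (5.36%), by edgeR or DESeq2. At an unadjusted edgeR p under 0.05 there were 3 members and 3076 of the 13832 genes. The Klhl21 call was lost without the M1 sum of batch 1, without either M3 sum and without either wildtype sum. Since the rule used this contrast, nothing is read from these counts. The median log2 difference was 0.01 over the tested members and 0.06 over all tested genes. In TMM CPM Klhl21 was the single member whose 6 mutant sums all lay below both wildtype sums, as 6.86% of tested genes did, and no member had all 6 above, as 10.2% did. In raw CPM, tried after seeing the data, no member had all 6 below (2.89% of genes) and Klhl12 had all 6 above (14.8%). Among the 12 members of at least 4 log2 CPM on average, the 10 other than Klhl21 and Klhl8 ran from -0.39 (Klhl9) to 0.84 (Klhl12).

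Klhl12 differed mainly in batch 2. It had 68.3 TMM CPM in wildtype eggs of batch 1 and 72.8 to 96.9 in the mutant sums there, but 23.1 in wildtype eggs of batch 2 against 58.9 to 88.96 in mutants and 63.2 in activated eggs. All 6 mutant sums were above the wildtype sum of their own batch, by 1.21 times on average in batch 1 and 3.08 times in batch 2. The share of all genes with this order within each batch was not counted. In batch 1 the 2 mutant eggs on the plate of the wildtype eggs had 62.5 and 69.2 raw CPM. Both lay inside the wildtype range of 23.8 to 77.8, which had a median of 65.2. The 7 mutant eggs on the other plate had a median of 79.4, and for these plate and genotype cannot be told apart. In wildtype eggs of batch 2 the median was 4.25 raw CPM and 10 of 24 eggs had none, whereas mutant eggs there had a median of 68.5. After thinning to 60000 counts, 7 of 24 wildtype eggs of batch 2 still had a Klhl12 count (29.2%), beside 16 of 17 activated eggs (94.1%). The 2 wildtype sums thus differed more from each other for this gene (2.96 times) than wildtype did from mutants in batch 1.

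Klhl9 and Klhl13, whose proteins also act on Aurora B, had smaller fitted mutant differences than Klhl21. Klhl9 had 208 and 162 TMM CPM in the wildtype sums of batches 1 and 2, 114.7 to 185 in the mutant sums and 126 in activated eggs. Its mutant difference was -0.39 ± 0.19, with every mutant sum below the wildtype sum of its batch in TMM CPM. In raw CPM the M2 sum of batch 2, at 146.95, was above wildtype there, at 139.23, and the other mutant sums stayed below. Klhl13 had 162 and 87.7 in the wildtype sums, 87.1 to 153 in the mutant sums and 120.9 in activated eggs. Its mutant sums in TMM CPM were all below wildtype in batch 1, at 0.731 times on average, and all above it in batch 2, at 1.23 times. In raw CPM the M2 sum of batch 1 was above wildtype for Klhl13. How many of all genes had such orders within batches, as Klhl9 and Klhl13 did, was not counted. Klhl25 stayed between 31.1 TMM CPM (activated) and 66.8 (M3, batch 1) in all 9 sums.

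Strontium activation was compared with wildtype eggs in the same fit, in which the single activated sum is taken to vary like the others and the wildtype sums are shared with the mutant contrast. Of the 28 tested members 1 was called, beside 13% of all genes. Klhl8 rose, among 783 genes that did (5.66%), and no member was called lower, beside 1014 genes (7.33%). By DESeq2, 1 member rose and 2, Klhl21 and Klhl42, were lower, with no DESeq2 share over all genes counted beside them. The Klhl21 value is a description only, because these wildtype sums helped to choose the gene. At an unadjusted edgeR p under 0.05 there were 4 of the 28 members and 3507 of the 13832 genes. The median log2 difference was -0.28 over the tested members and 0.15 over all tested genes, with 17 members below 0 and 11 above.

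Klhl8 lies on chromosome 5 (GRCm38, 103861973 to 103911259, minus strand, 10 exons). It had 2085 TMM CPM in activated eggs, 1092 in wildtype eggs of the same batch, and 827 (M1), 729 (M2) and 724 (M3) in the mutant sums of that batch. In batch 1 it was higher throughout, with 2539 in wildtype eggs and 1729.9 (M1), 2516 (M2) and 2033 (M3) in mutants. The activated level was therefore above the other sums of its own batch and inside the range of batch 1. The fitted rise over wildtype was 1.02 ± 0.27 (log2, SE, edgeR adjusted p = 0.017). Without the batch term it was 0.20 (edgeR adjusted p = 0.93), and with sums per plate it was 1.03 (edgeR adjusted p = 0.228).

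Within batch 2 the wildtype eggs ran from 170 over a median of 755 to 1854 raw CPM of Klhl8, and activated eggs from 591 over 1939 to 3498. Of the 17 activated eggs 16 were above the wildtype median and 10 above the highest wildtype egg. The ratio of raw CPM of the activated to the wildtype sum was 2.41, with an interval of 2.34 to 2.48 that covers counting error only. Activated eggs had a plate of their own, so plate and treatment cannot be told apart. In 9 of the 24 wildtype eggs of batch 2, 50 genes took over 35% of all counts. Those 9 eggs had a median of 492 raw CPM of Klhl8 and the other 15 a median of 1275. Without the 9 eggs the fitted rise was 0.97 (edgeR adjusted p = 0.032).

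Against mutant eggs Klhl8 rose as well, by 1.42 ± 0.23 (log2, SE, edgeR adjusted p = 0.00144). It was the 1 tested member called, beside 4.84% of all genes, with 196 genes higher (1.42%) and 474 lower (3.43%). DESeq2 also called 1 member higher and none lower. An unadjusted edgeR p under 0.05 was reached by 3 members and by 2475 of the 13832 genes. The medians were -0.10 over the tested members and 0.05 over all tested genes. Of the mutant eggs of batch 2, which ran from 207 over a median of 714 to 3038 raw CPM, 8 of 49 exceeded the highest wildtype egg. Without the batch term the difference was 0.55 (edgeR adjusted p = 0.827), and with sums per plate it was 1.44 (edgeR adjusted p = 0.062). Klhl8 itself was lower in mutant than in wildtype eggs by a described -0.40 ± 0.17. In batch 1 the 5 wildtype eggs had 1108, 1951, 2577, 2639 and 2264 raw CPM, and the 2 mutant eggs on their plate had 622 and 1252, while the 7 on the other plate ran from 856 over a median of 2447 to 3159. The mutant eggs of that batch thus spread as far as the wildtype eggs and beyond them on both sides.

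**Figure D4:**
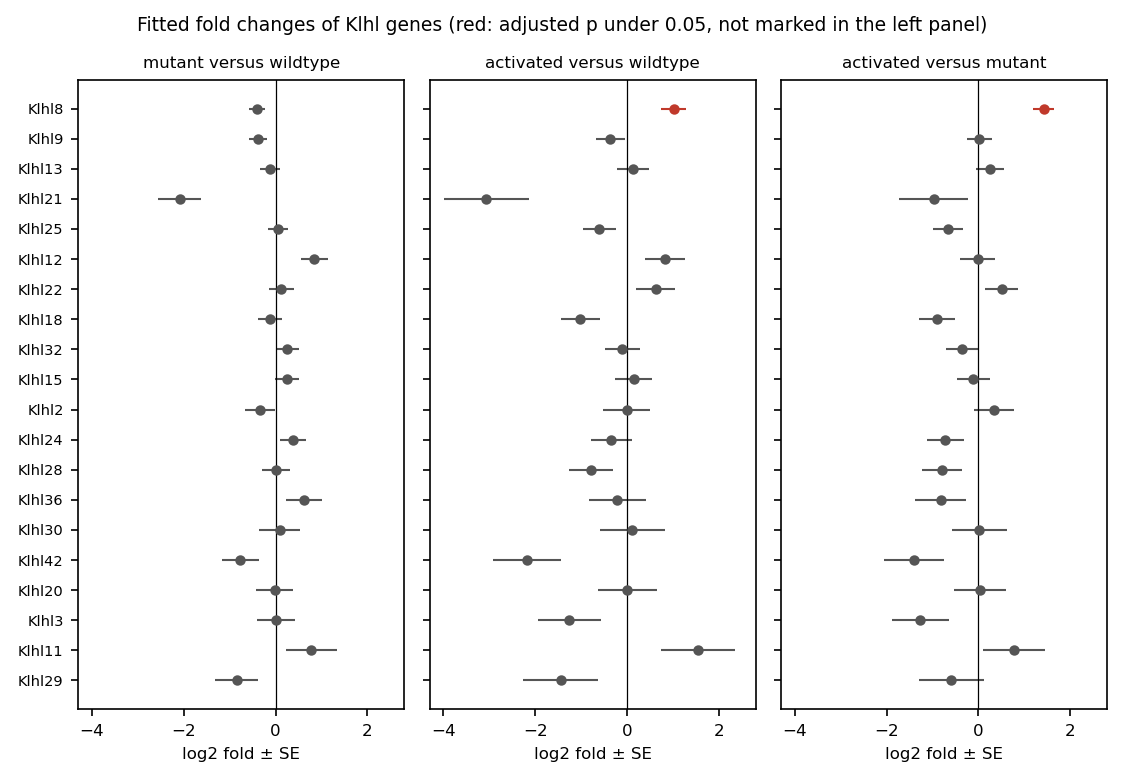
Fitted log2 differences with SE (x axis) for the 20 Klhl genes of at least 2 log2 CPM on average, in order of wildtype level per kilobase, for mutant over wildtype (left, a description only), activated over wildtype (middle) and activated over mutant (right). Klhl8 is the only red point, at 1.02 and 1.42, and Klhl21 has the lowest value of the left and middle panels, at -2.08 and -3.06.

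Klhl21 had 13.9 TMM CPM in activated eggs, below the 82.1 of wildtype eggs of the same batch. The fitted difference was -3.06 ± 0.92, and within batch 2 the ratio was 0.169. Because the same wildtype sums helped to choose the gene, this too is a description. Its activated value lay within the range of the mutant sums (12.7 to 79.6), and the fitted activated over mutant difference was -0.98 ± 0.75. It was -0.43 without the 2 high M2 eggs and -1.65 in thinned eggs, where it was called. The mutant sums also helped to choose the gene, so these values and that call are a description too.

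Other adaptors had lower or higher values after activation without passing the test. Klhl42 had 15.8 and 9.62 TMM CPM in the wildtype sums, 3.37 to 11.8 in the mutant sums and 2.87 in activated eggs, the lowest of the 9. Its activated over wildtype difference was -2.17 ± 0.74 (edgeR adjusted p = 0.0596). It was a low gene, with 42 counts in all activated eggs and 45 in the wildtype eggs of batch 2, of which 1 egg held 27. Klhl18 had 34.97 and 64.1 in the wildtype sums, 27.03 to 54.8 in the mutant sums and 26.5 in activated eggs, for a difference of -1.01 ± 0.42 (edgeR adjusted p = 0.128). Klhl3, an adaptor for WNK kinases, had a difference of -1.25 ± 0.68 (edgeR adjusted p = 0.270) and Klhl22 one of 0.63 ± 0.42 (edgeR adjusted p = 0.393). These members, like those given next, were chosen for mention after their values were seen.

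Several members that eggs barely express had few counts, part of them in activated eggs. Klhl6, known from B cells, had 63 of its 158 counts in the 17 activated eggs, at 4.30 TMM CPM beside 0.279 to 1.65 in the other sums. The 24 wildtype eggs of batch 2 had 4 of the counts. The raw CPM values were 4.66 in activated eggs and 0.736 in these, a ratio of 6.34 with a counting interval of 2.36 to 23.98, which covers counting error only. The fitted difference was 2.74 ± 1.43 from wildtype (edgeR adjusted p = 0.245) and 1.99 ± 1.18 from mutant eggs (edgeR adjusted p = 0.414). After thinning to 60000 counts, 7 of 17 activated eggs still had a Klhl6 count and 0 of 24 wildtype eggs of batch 2. That 0 allows a share of up to 12.5% if eggs are taken as independent, and no animal is named. In the mutant groups of batch 2, 3 of 16 M1, 1 of 16 M2 and 0 of 17 M3 eggs had a count. In batch 1 it was 1 of 5 wildtype, 0 of 4 M1, 0 of 2 M2 and 0 of 3 M3 eggs. All 5 counts of Klhl4 and all 6 of Klhl23 came from activated eggs, as did 9 of the 10 counts of Klhl40, a muscle protein of the sarcomere, but the 6 Klhl23 counts were in 1 egg. With so few counts no difference was detectable at this depth. Klhl38 had no count in any egg, and Klhl34 and Klhl41 had 1 count each. Klhl10, known from spermatids, had 13 counts, of which 10 lay in 1 wildtype egg of batch 1, and Klhl33 had 9.

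Egg-to-egg spread was examined in the deep eggs of batch 1, where 16 members averaged at least 10 raw CPM in the 5 wildtype eggs. Their median coefficient of variation was 32.5%, beside 30.4% over 6390 genes of that level. Klhl32 (15.4%), Klhl9 (17.2%) and Klhl25 (17.3%) were the steadiest, with counting error alone giving 5.70%, 3.02% and 5.48%. Klhl8, at 29.5%, was near the middle. Klhl21 varied most, at 74.1%, with its highest egg at 8.56 times its lowest, followed by Klhl30 (67.8%), Klhl36 (62.1%) and Klhl18 (60.8%). Among the 9 mutant eggs Klhl18 varied most, at 98.4%, and Klhl12 least, at 19.7%. At an equal depth of 60000 counts an egg showed 14.2 ± 0.447 of the 36 members in wildtype eggs of batch 1 (mean ± SD over 5 eggs) and 9.67 ± 2.44 in wildtype eggs of batch 2 (24 eggs), beside 13.1 ± 1.58 in activated eggs (17 eggs). The wildtype eggs of batch 2 thus showed fewer members at equal depth too, and each comparison with wildtype within batch 2 rests on them.

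Mutant groups were compared with each other in 9 sums per group and plate, a comparison the choice of the family did not use. No gene was called between M2 and M1, M3 and M1 or M3 and M2 (0 of 11009 in each, 0%), including the 24 members tested there, and DESeq2 called no member. At an unadjusted p under 0.05 edgeR had 690, 866 and 275 genes and 3, 1 and 1 members. The single member below 0.05 between M3 and M2 was Klhl21, at -1.68 ± 0.49 (edgeR adjusted p = 1.00). On the plate names Plate1, Plate2 and scO in turn it had 105, 50.3 and 20.7 TMM CPM in M2 and 12.5, 13.9 and 20.5 in M3. Without the 2 high M2 eggs the difference was -0.71. M2 over M1 was 0.82 ± 0.47 (edgeR adjusted p = 0.82903) and turned to -0.35 without them. Klhl32 was lower in both M2 and M3 than in M1, by -0.76 ± 0.29 (edgeR adjusted p = 0.786) and -0.78 ± 0.29 (edgeR adjusted p = 0.596), neither past the threshold.

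Partners of these adaptors were examined by lists. Their calls rested on the batch term, without which 0 of the 22 named calls passed by edgeR, and 9 of the 22 passed with sums per plate. DESeq2 kept all 22. Without the 9 wildtype eggs of batch 2 with over 35% of counts in 50 genes, the calls of Kctd13, Rhobtb1, Ctnnb1 and Sec31a were lost, and that of Sec31a also without wildtype egg 5 of batch 1. Cul3, the scaffold itself, had 3.01 to 5.72 TMM CPM in the 9 sums. Of 25 genes of the CUL3 core, its NEDD8 cycle and the COP9 signalosome, all tested, 5 were higher and 0 lower in mutants by edgeR, beside 5.36% and 4.03% of all genes, with a median log2 difference of 0.12 beside 0.06 over all genes. NEDD8 itself was among them. Nedd8 had 20.4 and 22.4 TMM CPM in the wildtype sums, 35.8 to 72.9 in the mutant sums and 62.6 in activated eggs. Wildtype and the rest did not overlap, but 10.2% of tested genes had all 6 mutant sums above both wildtype sums. Nedd8 rose by 1.30 ± 0.26 in mutants (edgeR adjusted p = 0.00466) and by 1.39 ± 0.37 in activated eggs (edgeR adjusted p = 0.0175). The signalosome subunit Cops4 had 46.5 and 40.8 in the wildtype sums, 91.01 to 148 in the mutant sums and 134 in activated eggs, a rise of 1.47 in both comparisons. Cops7a, another subunit, Dcun1d4, which promotes cullin neddylation, and Ube2f, a NEDD8-conjugating enzyme that serves CUL5, made up the 5. The same 5 genes were higher in activated eggs, beside 5.66% of all genes, in a comparison that shares the wildtype sums. Dcun1d2 was lower there, by -1.55 ± 0.37 (edgeR adjusted p = 0.00842), beside 7.33% of all genes. Against mutants only Dcun1d5 rose in activated eggs, by 1.11 ± 0.29 (edgeR adjusted p = 0.0315), beside 1.42% of all genes. Without the wildtype sum of batch 2, the calls of Cops7a and Dcun1d4 in mutants and of Cops4 and Dcun1d4 in activated eggs were lost, and the Dcun1d5 call was lost without any 1 of the mutant sums of batch 2.

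Calls among other adaptors that bind CUL3 are to be read beside 9.38% of all genes called in mutants and 13% in activated eggs over wildtype. Of 13 tested kelch relatives outside the Klhl symbols, 1 was lower in mutants and in activated eggs. This was Kbtbd6, which with KBTBD7 acts on the RAC1 activator TIAM1. It had 136 and 154 TMM CPM in the wildtype sums, 52.8 to 97.1 in the mutant sums and 39.9 in activated eggs, differences of -0.89 ± 0.22 (edgeR adjusted p = 0.0157) and -2.003 ± 0.39 (edgeR adjusted p = 0.00227). Of 21 tested BTB adaptors without kelch repeats, 2 were higher in mutants and 2 higher and 1 lower in activated eggs. Spop, the best known of these, had 39.1 and 22.9 in the wildtype sums, 72.9 to 107 in the mutant sums and 103.2 in activated eggs. The second was Rhobtb2, a low gene whose rises of 2.19 and 2.96 were no longer called in thinned eggs, and the lower one was Rhobtb1 at -1.27, not called in thinned eggs either. Against mutants, Kctd13, an adaptor for RhoA, rose by 0.89 ± 0.24 in activated eggs (edgeR adjusted p = 0.0384), beside 1.42% of all genes. The Kbtbd6 call in mutants was lost without the M1 sum of batch 1 or either wildtype sum, that of Rhobtb2 in mutants without the M1 or wildtype sum of batch 1, and that of Kctd13 without either M2 sum or the M3 sum of batch 2.

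Of the other 7 cullin scaffolds 1 was called, Cul4a, which was lower in activated than in wildtype eggs by -2.79 ± 0.63 (edgeR adjusted p = 0.00837), beside 7.33% of all genes called lower there. It had 89.6 and 29.1 TMM CPM in the wildtype sums, 19.8 to 42.2 in the mutant sums and 6.14 in activated eggs. Among 27 tested proteins known as substrates or partners of Kelch-like ligases, beside the same shares of all genes, Sec31a was lower in mutants by -0.63 ± 0.17 (edgeR adjusted p = 0.0296). In activated eggs Depdc5, a target of KLHL22, rose by 1.95 ± 0.46 (edgeR adjusted p = 0.00877) and Ctnnb1 was lower by -1.14 ± 0.33 (edgeR adjusted p = 0.028), a call lost in thinned eggs. Pdcd6, which joins KLHL12 to its substrate, was lower in activated than in mutant eggs by -2.19 ± 0.49 (edgeR adjusted p = 0.0160). In that comparison 3.43% of all genes were lower. Sec31a was no longer called without the M1 or M3 sum of batch 1, the M2 sum of batch 2 or either wildtype sum, and Depdc5 was not without the wildtype sum of batch 2. Aurka, Aurkb and Plk1 were among the 24 of these 27 genes not called in activated against wildtype or mutant eggs.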

How the data were processed

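The deposited table held raw counts, whole numbers that the authors did not normalise, for 21564 gene symbols in 107 single eggs. STAR for alignment, HTSeq for counting and the builds GRCm38 and mm10 come from the submitters' processing notes. Tool versions, annotation and strand are not stated in the sources used here. Gene positions, lengths and 3′ ends came from GENCODE M21 (GRCm38), in which all 36 symbols were found.

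The Klhl genes and the 5 lists of partners were chosen with earlier results of these data known. Groups and replicate numbers came from the titles and batches from the labels. Counts were summed per group and batch (9 sums, 3 residual degrees of freedom), because eggs are single cells and no animal is named. The tests were robust quasi-likelihood F tests in edgeR 4.0.16 under R 4.3.3, with TMM scaling and terms for group and batch. Genes passed its filter at a minimum count of 10 (13832 genes), all of which entered the Benjamini-Hochberg adjustment, and calls had an adjusted p under 0.05. The mutant value is the mean of M1, M2 and M3. For M1, M2 and M3 against each other, eggs were summed by group and plate name (9 sums) and the plate was a block (4 residual degrees of freedom, 11009 genes). Standard errors are the log2 difference divided by the square root of F. Shifts common to a batch are absorbed by its term, so a fitted difference can depart from the ratio within a batch.

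Values per egg are raw CPM of eggs with at least 10000 counts. For shares of eggs and members per egg, eggs were thinned to 60000 counts. Values are relative to each library's total. Intervals of ratios are exact 95% intervals for counting error, and reads without molecular identifiers are not independent molecules. Named genes were Klhl21, members past the threshold, the 6 members highest per kilobase in wildtype, members at 0 throughout, and per comparison up to 4 called genes of each list by p. Other members, Cul3, Ube2f, and Nedd8 in activated eggs were named after their values were seen. Alternatives were RLE scaling, no filter, DESeq2 1.42.0, sums per plate, no term for batch or plate, thinned eggs, the plates of the deposited egg table, and leaving out shallow eggs, wildtype eggs with counts in few genes, or each sum. The fitting was tested on simulated data, with changes set in better expressed genes. Of 100 changes of 2-fold, 56 were recovered in mutant over wildtype, 7 in activated over wildtype and 19 in activated over mutant eggs. Of 100 changes of 4-fold, 98, 78 and 81 were recovered in the same order. Calls of genes with no change set numbered 16, 8 and 7. The simulated counts carried no batch effect, so the batch term was not tried on one.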

Additional observations from a re-analysis of the deposited data

Results flagged for a closer look

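Klhl25 in the wildtype eggs of batch 1 had 1 egg apart from the others, wildtype egg 5, at 70.7 raw CPM, while the other 4 lay between 46.96 and 52.9. The gap took up 0.749 of the range, above the critical value of 0.71 for 5 eggs. Chance alone gives such a gap in about 1 group of 20, and this was the only one in 12 groups examined. The same egg held the highest Klhl21 value of its group.

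Klhl13 differed in direction between the batches. In TMM CPM the mean of the mutant sums was 0.731 times wildtype in batch 1, with all 3 below it, and 1.23 times in batch 2, with all 3 above it. This difference was not tested, and the share of all genes with such a change of direction was not counted. The wildtype sums themselves differed by 1.85 times for this gene.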

How the results depend on the processing

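No paired analysis was possible because the sums carry no replicate number, and the numbers in the titles only name eggs. Values with no batch term: Klhl8 was 0.20 in activated over wildtype eggs and 0.55 over mutants, and both calls were lost, as with sums per plate (1.03 and 1.44). Counts of called members changed as follows. In mutants over wildtype, 1 was higher (Klhl12) with no filter or in thinned eggs, and 0 to 1 with each sum left out in turn, and 0 were lower without the batch term. Klhl21 was no longer called there without the M1 sum of batch 1, an M3 sum or a wildtype sum, so that 0 to 1 were lower. In activated over wildtype eggs, 0 were higher without the batch term or with sums per plate, 2 (Klhl8 and Klhl12) in thinned eggs, and 1 to 2 with each sum left out (2 without the wildtype sum of batch 1). Those lower were 2 (Klhl21 and Klhl42) with no filter or DESeq2, 1 in thinned eggs, without the 2 high M2 eggs or without wildtype egg 5 of batch 1, and 0 to 2 with each sum left out (Klhl21 without an M2 sum, with Klhl42 for batch 2, Klhl18 without the wildtype sum of batch 1 and Klhl42 without that of batch 2). Klhl21 calls over wildtype eggs remain a description, because those wildtype sums helped to choose the gene. In activated over mutant eggs, 0 were higher without the batch term or with sums per plate, and 1 (Klhl21) was lower in thinned eggs. That Klhl21 call is a description too, because the mutant sums also helped to choose the gene. Between M3 and M2, 1 (Klhl21) was lower with no filter. Over all genes, thinned eggs had 553 higher and 580 lower in mutant over wildtype eggs. They had 732 and 925 in activated over wildtype and 313 and 534 in activated over mutant eggs. For the other alternatives that changed these counts, no share over all genes was counted beside them, so nothing is read from the counts.

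Small differences changed sign. Klhl13 in activated over wildtype eggs became -0.048 without the batch term and -0.047 in thinned eggs, and ran from -0.34 (without the wildtype sum of batch 2) to 0.46 with each sum left out. Klhl9 in activated over mutant eggs became -0.17 without the batch term and ran from -0.091 (without the M3 sum of batch 2) to 0.20 with each sum left out. Klhl12 in that comparison became 0.0063 with RLE scaling, 0.0079 with DESeq2, 0.34 in thinned eggs, and ran from -0.18 to 0.35 with each sum left out, above 0 without the M1, M2 or M3 sum of batch 2. Klhl21 in M2 over M1 became -0.35 without the 2 high M2 eggs. The cause of these changes was not tested. RLE scaling moved the median of all genes in mutants from 0.06 to 0.01 and the share of calls that were higher from 57.1% to 49.7%, and thinning moved them to -0.04 and 48.8%.

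The limits lie in the design. Activated eggs formed 1 sum, and in batch 2 wildtype, mutant and activated eggs shared no plate. Members below about 1 CPM rest on few counts, and their differences were not detectable at this depth. The alternatives without the 2 high M2 eggs, without wildtype egg 5 and with raw CPM were chosen after seeing the data.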
